A study of Mus musculus with 504 samples.

Results

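Elastic fibres are the part of the extracellular matrix that lets a tissue stretch and recoil, and the 8 genes described here encode their core protein, their scaffold and the proteins that join both: Eln, Fbn1, Fbln1, Fbln2, Fbln5, Mfap2, Mfap4 and Mfap5. They were taken by symbol from 55450 gene identifiers in a table of read counts, and each symbol matched 1 identifier. An elastic fibre has a core of elastin, secreted as a soluble monomer and crosslinked by enzymes of the lysyl oxidase family, which is laid down on a scaffold of microfibrils made of fibrillin. Fibulins and microfibril-associated glycoproteins bind elastin, fibrillin or both, and fibulin-5 helps to bring elastin to the scaffold. Fibroblasts and smooth muscle cells are the usual producers.

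The libraries came from mammary tumours of mice that carry the polyoma middle T oncogene under the MMTV promoter. Each library was made by Smart-seq2 from a pool of 5 sorted cells. A Flp recombinase (Flpo), also under the MMTV promoter, turns on mCherry from the reporter RC::FrePe, and a tamoxifen-dependent Cre under the Tnc or the Cdh2 gene then replaces mCherry by GFP. The Tnc line carried Tnc-CreERT2 and the Cdh2 line Cdh2-CreERT2, each together with MMTV-Flpo, RC::FrePe and MMTV-PyMT, with 5 animals per line. Tamoxifen, 2 mg per dose in 2 weekly doses, was given to all animals from an age of 9 weeks until they were killed at about 13 to 14 weeks, so no group lacks the oncogene, the reporter or the drug. In the Tnc line the populations and the numbers of pools that passed the authors' quality control were P05 (mCherry+, EpCAM negative, 32 pools), P15 (GFP+, EpCAM negative, 12), P10 (GFP+, EpCAM low, 25), P16 (GFP+, EpCAM medium, 26), P09 (GFP high, EpCAM medium, 48), P22 (mCherry+ and GFP+, EpCAM high, 50), P17 (mCherry+, EpCAM high, 11) and P18 (mCherry high, EpCAM high, 55). These pools came from 3 animals each in P15 and P17, from 4 each in P10 and P16, and from all 5 in the other Tnc populations. In the Cdh2 line the populations were P15 (16 pools of 3 animals), P05 (10 pools of the animal Cdh1725 alone) and P18 (50 pools of 5 animals). The labels of single libraries give P09 as EpCAM medium, like P16; the series text names a GFP-high, EpCAM-medium gate P18, and it was read here as that of P09.

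The promoter windows of 4 members are shown because these genes divide in what follows: Fbn1 and Mfap2 had at most 1 read per animal in P18 of the Tnc line, whereas Fbln2 and Fbln5 had reads there in every animal. The windows run from 250 bases before to 50 bases after a transcript start in RefSeq on GRCm38.p6, 5′ to 3′ along the gene's own strand, and capitals mark the motifs named after them. They are Fbn1 at chr2:125506389-125506688 (minus strand), Mfap2 at chr4:141010431-141010730 (plus strand), Fbln2 at chr6:91212514-91212813 (plus strand) and Fbln5 at chr12:101819070-101819369 (minus strand).
Fbn1: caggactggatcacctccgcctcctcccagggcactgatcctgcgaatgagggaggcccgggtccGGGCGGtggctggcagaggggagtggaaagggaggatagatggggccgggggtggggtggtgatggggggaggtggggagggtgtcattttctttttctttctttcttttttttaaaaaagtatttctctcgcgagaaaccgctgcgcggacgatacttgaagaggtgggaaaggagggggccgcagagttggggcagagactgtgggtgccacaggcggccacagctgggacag
Mfap2: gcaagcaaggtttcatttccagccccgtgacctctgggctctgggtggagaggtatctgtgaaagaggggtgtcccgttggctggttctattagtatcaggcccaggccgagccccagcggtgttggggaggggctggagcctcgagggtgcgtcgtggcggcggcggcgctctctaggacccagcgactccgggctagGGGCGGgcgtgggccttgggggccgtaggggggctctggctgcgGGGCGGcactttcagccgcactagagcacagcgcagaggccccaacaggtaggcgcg
Fbln2: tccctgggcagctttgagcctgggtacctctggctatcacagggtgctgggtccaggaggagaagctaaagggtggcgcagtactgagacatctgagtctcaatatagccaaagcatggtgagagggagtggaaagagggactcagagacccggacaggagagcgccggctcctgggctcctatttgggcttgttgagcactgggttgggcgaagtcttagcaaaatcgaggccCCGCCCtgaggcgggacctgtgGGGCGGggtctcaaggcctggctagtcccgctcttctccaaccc
Fbln5: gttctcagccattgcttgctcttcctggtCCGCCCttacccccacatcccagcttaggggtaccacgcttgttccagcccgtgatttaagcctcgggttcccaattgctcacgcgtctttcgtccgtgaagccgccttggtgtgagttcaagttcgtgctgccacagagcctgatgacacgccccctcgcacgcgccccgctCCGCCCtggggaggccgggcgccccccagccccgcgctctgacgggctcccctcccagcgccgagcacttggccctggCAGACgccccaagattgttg
Of the 8 members, 5 had an entry, with 8 windows in all; Eln, Mfap4 and Mfap5 are named only. The letters GGGCGG (a GC box), read on both strands, stood in 5 of the 8 windows and in 35.7% of all 32851 windows of that length. The letters CAGAC (a Smad element) stood in 5 of 8 windows and in 49.6% of all, and GGAATG (a TEAD site) in 1 of 8 and in 14.7%. The TATA box, as TATAAA, was in none of the 8 and in 13.6% of all windows. The E-box CACCTG was likewise in none of the 8 and in 20.2% of all, and the AP-1 element TGANTCA in none of the 8 and in 7.81% of all. No motif holds another in full, and a match describes these letters only. Each of the 4 windows printed held at least 1 GC box, while the second windows of Mfap2 and Fbln5 held none.

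Passing libraries held between 313655 and 27849014 counts, with a median of 5378503, and were summed per animal and population into 43 sums, 2 of which rest on 1 library. The 17 wells without cells held 0 reads of the 8 genes. Levels of animal sums are counts per 1000000 (CPM) scaled by TMM factors. Levels of single pools are CPM without such factors, so a sum of 1 library and its pool can differ in level. A pool is said to hold a gene at 10 CPM or more. Sequencing lane 1 held 4 Tnc animals, and lane 2 held TENA2524 and all 5 Cdh2 animals, so line and lane cannot be told apart outside that animal. Epcam, whose protein set the gates, had a median of 0 CPM over the pools of Tnc P05 and P15 and of 4367 CPM over those of P18. Pools mix cells, so fewer cells of a type and less RNA per cell cannot be told apart. Pools of 1 animal are not independent, and the animal is the replicate throughout. The share of all genes whose groups do not overlap is not given, so a lack of overlap below describes the named gene only.

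In the Tnc line the elastic fibre genes were highest in P05, the mCherry+ cells without surface EpCAM. Of the 8 genes, 3 rose against P18 at an adjusted p below 0.05 (edgeR quasi-likelihood test with animal as a block, Benjamini-Hochberg over 33768 genes): Fbn1, Mfap4 and Mfap5. In that comparison 0.352% of all genes were called higher. The smallest population has 1 sum, so the filter also kept genes with few reads in most sums. Fbn1, Mfap2 and Mfap5, nearly without reads in P18, passed it through groups where they are high. The members were also chosen with earlier results known, so the shares and medians of all genes here and below are no test of the members as a set. None of the 8 fell. The 8 genes all had a higher fitted value in P05, with a median log2 fold change of 8.46, against a median of -0.15 over all genes tested. DESeq2, run as an alternative, called all 8 higher, as it did 6.5% of all genes.

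Eln encodes the elastin monomer of the fibre core. Its level was 496 CPM in P05 of TENA2462, 1013 in TENA2483, 0.0947 in TENA2517, 393 in TENA2524 and 644 in TENA2560, against 0.545, 20.5, 2.04, 9.08 and 7.05 CPM in P18 of the same animals in the same order. P05 was far above P18 in 4 of the 5 animals and below it in TENA2517, whose P05 sum of 3 pools held 1 read, so the groups overlap. The fitted log2 fold change was 6.83 ± 1.72 (SE) and missed the threshold, with an edgeR adjusted p of 0.0586. It passed in edgeR with RLE size factors in place of TMM factors, where the adjusted p was 0.0435. It also passed when the libraries of a sum were weighted equally, where the adjusted p was 0.0211.

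Fbn1 encodes fibrillin-1, the chief protein of the microfibril scaffold. P05 held 1747, 426, 74.5, 200.2 and 337 CPM in TENA2462, TENA2483, TENA2517, TENA2524 and TENA2560, against 0.0147, 0.0208, 0, 0 and 0 CPM in P18 of the same animals. P05 was above P18 in 5 of 5 animals and the groups did not overlap. The 55 P18 pools held 2 reads of Fbn1 in all, so the change is given as the ratio of the pooled counts, with a log2 of 16.14 and a 95% exact binomial interval of 14.29 to 19.19 that covers counting error only. The edgeR adjusted p was 0.0232.

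Of the 3 fibulins none passed the test. Fbln1, a fibulin found within the elastin core, had 216 CPM in P05 of TENA2462, 17.4 in TENA2483, 0 in TENA2517, 0 in TENA2524 and 45.8 in TENA2560, against 0, 0.8125, 2.49, 1.74 and 0.1445 CPM in P18. It was higher in P05 in 3 of 5 animals and lower in 2, with a fitted log2 fold change of 7.06 ± 3.17 (SE; edgeR adjusted p 0.325); without TENA2462 that value was -0.24.

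Fbln2, which binds fibrillin and basement membrane proteins, had 422, 418, 25.1, 188 and 327 CPM in P05 and 10.65, 18.6, 18.6, 43.2 and 19.5 CPM in P18, in the same order of animals. Each animal's P05 exceeded its own P18, although the P05 value of TENA2517 lay below the P18 value of TENA2524. Fbln5, the fibulin that brings elastin to the scaffold, had 63.2, 387, 31.3, 158 and 144 CPM in P05 and 4.08, 7.29, 10.8, 4.84 and 4.00 CPM in P18, with no overlap between the groups. The fitted log2 fold changes were 3.72 ± 1.56 for Fbln2 and 4.31 ± 1.81 for Fbln5 (SE), each with an edgeR adjusted p of 0.283. Both genes had reads in P18 of every Tnc animal, unlike Fbn1 and Mfap2.

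Mfap2 encodes MAGP-1, a small glycoprotein of the microfibril that binds fibrillin. It had 245, 98.1, 0, 41.9 and 175 CPM in P05, against 0 reads in P18 of all 5 animals. Set against 3 counts over the P18 group, its log2 fold change was at least 13.51, and the edgeR adjusted p was 0.0596. Mfap4 encodes a secreted glycoprotein that binds elastin and collagen. It had 114, 92.4, 0.189, 48.4 and 224 CPM in P05 and 0.103, 0.0208, 0.1065, 0.1935 and 0.0222 CPM in P18, which made P05 higher in 5 of 5 animals, by little in TENA2517. Its fitted log2 fold change was 9.86 ± 1.72 (SE; edgeR adjusted p 0.0160). Mfap5, which encodes MAGP-2, the other fibrillin-binding glycoprotein of this kind, had 3658, 663, 0, 378 and 470 CPM in P05 and 1 read in all of P18, in TENA2560. Its pooled log2 ratio was 17.98, with a counting interval of 15.50 to 23.28, and its edgeR adjusted p was 0.0231.

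**Figure D1:**
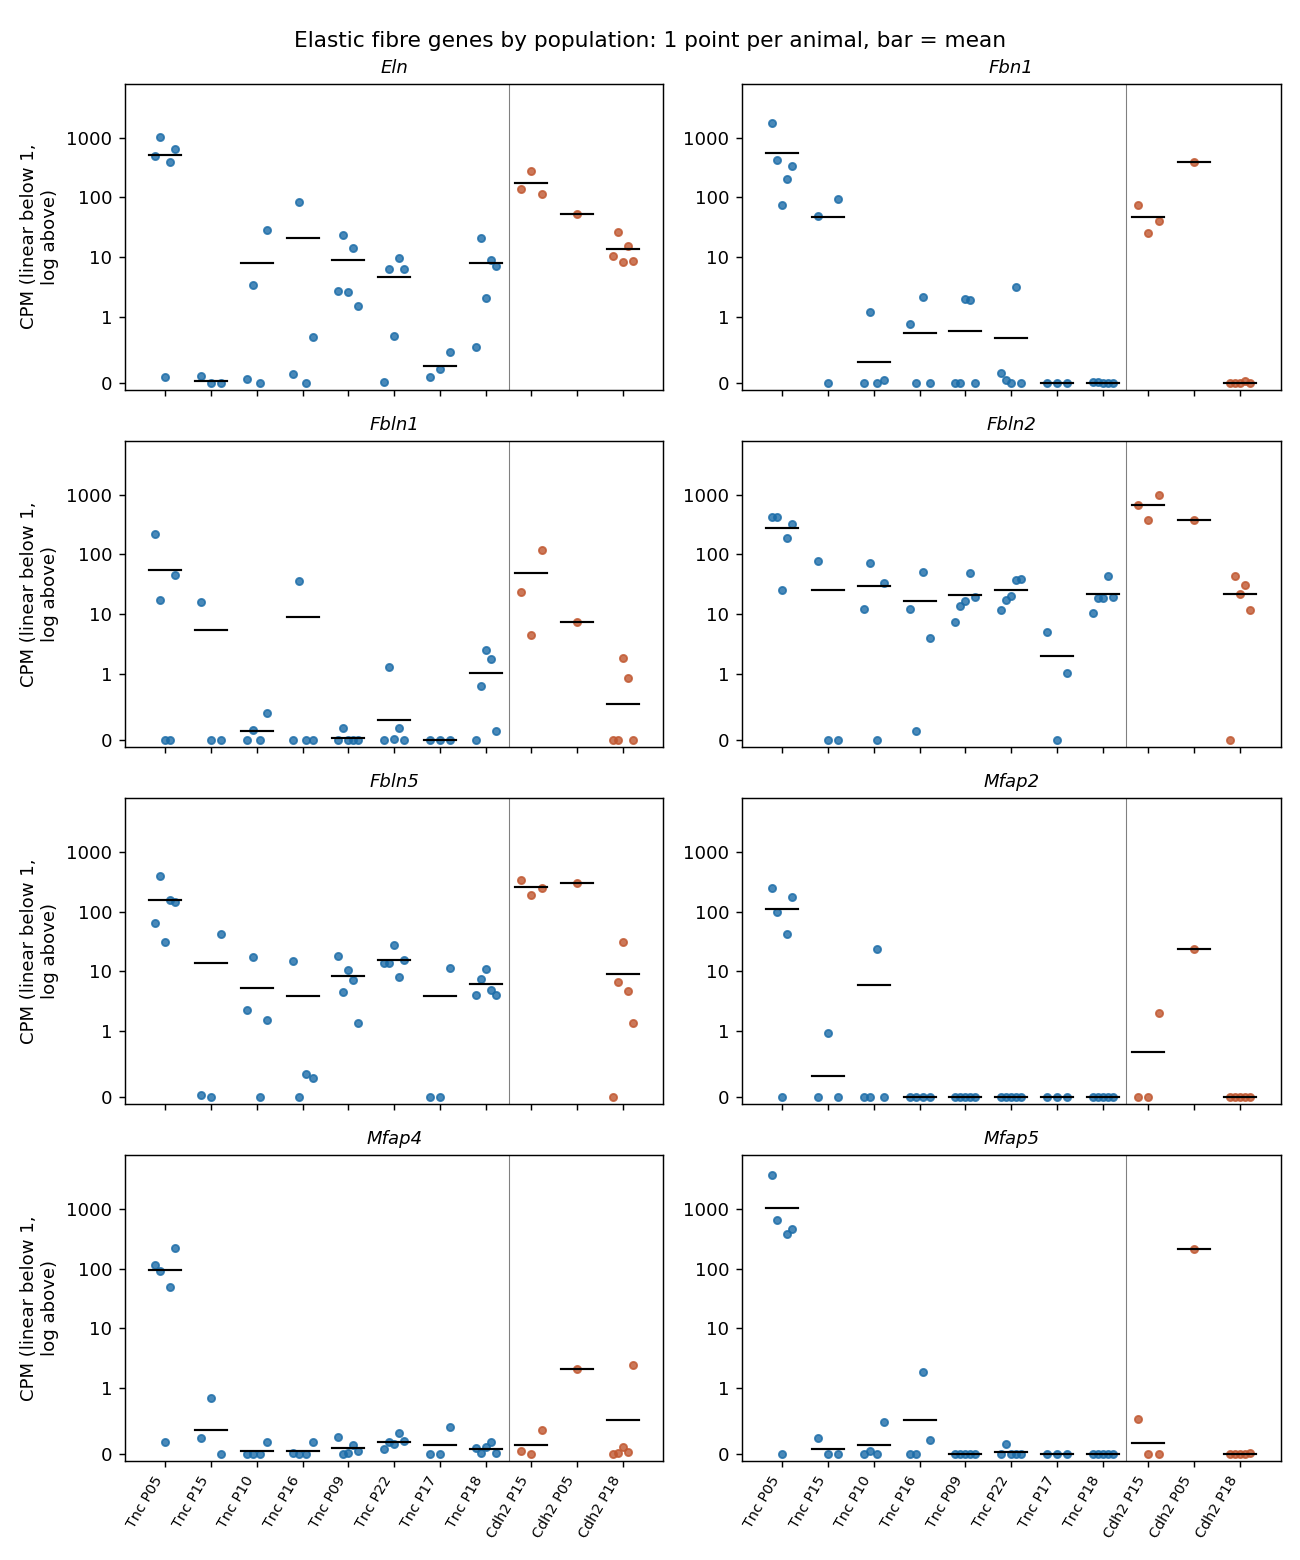
Level of each of the 8 genes per animal and population, in CPM on a scale that is linear below 1 and logarithmic above it; each point is 1 animal's sum and each bar the mean of a group. Tnc P05 reaches 3658 CPM for Mfap5 and 1747 CPM for Fbn1, while Mfap2 lies at 0 in P18 of both lines and the point of TENA2517 stands low in P05 for Eln, Mfap2, Mfap4 and Mfap5.

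These calls rest on 4 of the 5 Tnc animals, each of which was needed. Fbn1, Mfap4 and Mfap5 were called in the 6 fits that left out TENA2517 or a Cdh2 animal and lost in each of the fits without TENA2462, TENA2483, TENA2524 or TENA2560, where 0 of the 8 genes were called. In those 4 fits 0 to 3 genes of any kind were called higher, against 119, and over the 10 fits the fitted log2 fold changes were 15.90 to 17.69 for Fbn1, 9.02 to 10.71 for Mfap4 and 15.67 to 18.80 for Mfap5. Fitted on P05 and P18 sums only, with 6 of the 8 tested, Fbn1 was the 1 member called, among 2 genes of 16820 (0.0119%). A few libraries carried much of the signal: the library TENA2560 R10 held 52.8% of the P05 reads of Mfap4 and 35.2% of those of Mfap2. TENA2462 R6 held 36.9% of the P05 reads of Mfap5 and 32.2% of those of Fbn1, and TENA2483 R9 held 41.6% of those of Fbln5. The 3 pools of TENA2517 had little in common: 1 held Fbn1 and Fbln5, 1 held Fbln2 with Krt8 at 679 CPM, and 1 held Ptprc at 520 CPM and no member.

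Per kilobase of exon, the members' levels in P05 of the Tnc line summed to a mean of 618 CPM per kb. Mfap5 made up 46.6% of that sum, Mfap2 15.0% and Eln 10.2%. In P18 of the Tnc line the sum was 5.62 CPM per kb, of which Fbln2 made up 61.8%, Eln 17.2% and Fbln5 16.0%, and Mfap2 none. In P15 of the Cdh2 line it was 180.5 CPM per kb with Fbln2 at 58.4%, Fbln5 at 20.9% and Eln at 11.9%, and the 3 Mfap genes below 1 CPM per kb each. These shares of a mean over animals carry no test. TENA2462 weighs heavily in Tnc P05: without it the sum was 369.6 CPM per kb and the share of Mfap5 28.4%. In P05 of TENA2560 Mfap2 stood above Mfap5 per kb, at 144 against 131 CPM per kb.

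Markers of other cell types moved with P05. The 12 fibroblast markers summed to between 57.9 and 18704 CPM per animal in P05 (median 7627) and between 0.221 and 7.64 CPM in P18, where Lum, Dpt, Islr, Col14a1, Cd34 and Thy1 were at 0 reads, and 8 of the 12 were called higher. The 10 leukocyte and macrophage markers summed to 32.6 to 5511 CPM in P05 and 6.91 to 39.1 CPM in P18, with Ptprc and Adgre1 at 0 in P18, and 2 of the 10 were called higher. The 10 pericyte and smooth muscle markers summed to 14.2 to 985 CPM in P05 and 3.36 to 19.6 CPM in P18, with Pdgfrb and Des at 0 in P18, and 1 was called higher. The 7 endothelial markers summed to 0.346 to 242 CPM in P05 and 1.06 to 2.88 CPM in P18, with Cdh5, Emcn and Erg at 0 in P18, and none was called. The 12 epithelial markers summed to 186 to 1790 CPM in P05 and 10671 to 23712 CPM in P18, and 4 were called lower. The part of these cell types in the result was not tested; with the pools that held Ptprc left out, 5 of the 8 members were called in place of 3, Eln and Mfap2 being added, with 0.371% of all genes called higher.

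**Figure D2:**
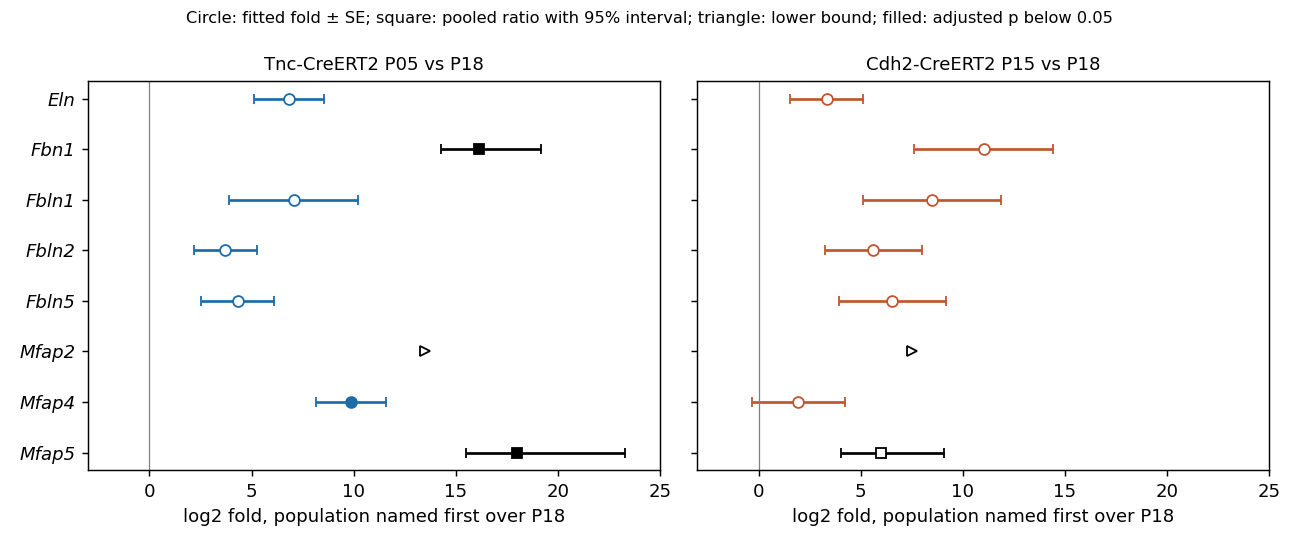
Log2 fold changes of the 8 genes in P05 over P18 of the Tnc line (left) and P15 over P18 of the Cdh2 line (right); circles are fitted values with SE, squares pooled ratios with 95% counting intervals and triangles lower bounds, filled where the adjusted p was below 0.05. All 8 lie above 0 in both panels, with Fbn1, Mfap4 and Mfap5 filled on the left, at 16.14, 9.86 and 17.98, and none filled on the right, where the bar of Mfap4 (1.95 ± 2.28) crosses 0.

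Single pools show that the members did not travel as a block. Of the 32 Tnc P05 pools, 23 held Fbln2, 20 Fbn1, 18 Eln and 17 Fbln5, against 13 that held Mfap5, 12 Mfap4, 10 Mfap2 and 9 Fbln1. A pool with any of the 3 Mfap genes was found 13 times, and each of the 13 held another member too; 12 of them held Col1a1, the chief collagen of fibroblasts. All 3 Mfap genes stood together in 10 pools and all 8 members in 4. A further 13 pools held a member but no Mfap gene, 9 of these without Col1a1, and 6 pools held no member.

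The pools were also sorted by Col1a1 and Ptprc, the pan-leukocyte phosphatase. Among the 15 pools with Col1a1 and without Ptprc, 14 held Fbn1, 14 Fbln2, 12 Mfap5, 12 Mfap4, 10 Mfap2, 10 Eln, 10 Fbln5 and 7 Fbln1. Among the 10 pools with neither, 9 held Fbln2, 7 Eln, 7 Fbln5 and 5 Fbn1, but 1 held Mfap5, 1 Fbln1 and none Mfap2 or Mfap4. Of the 6 pools with Ptprc and without Col1a1, 1 held Fbln1 and none any other member. Over the 32 pools, which share animals and depth, Spearman's rho with Col1a1 was 0.86 for Mfap2, 0.84 for Mfap5, 0.79 for Fbn1, 0.78 for Mfap4 and 0.71 for Fbln1, and 0.39 for Fbln2, 0.36 for Eln and 0.11 for Fbln5. In these pools Fbn1, Fbln1 and the Mfap genes thus had the higher values of rho, and Fbln5 the lowest.

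**Figure D3:**
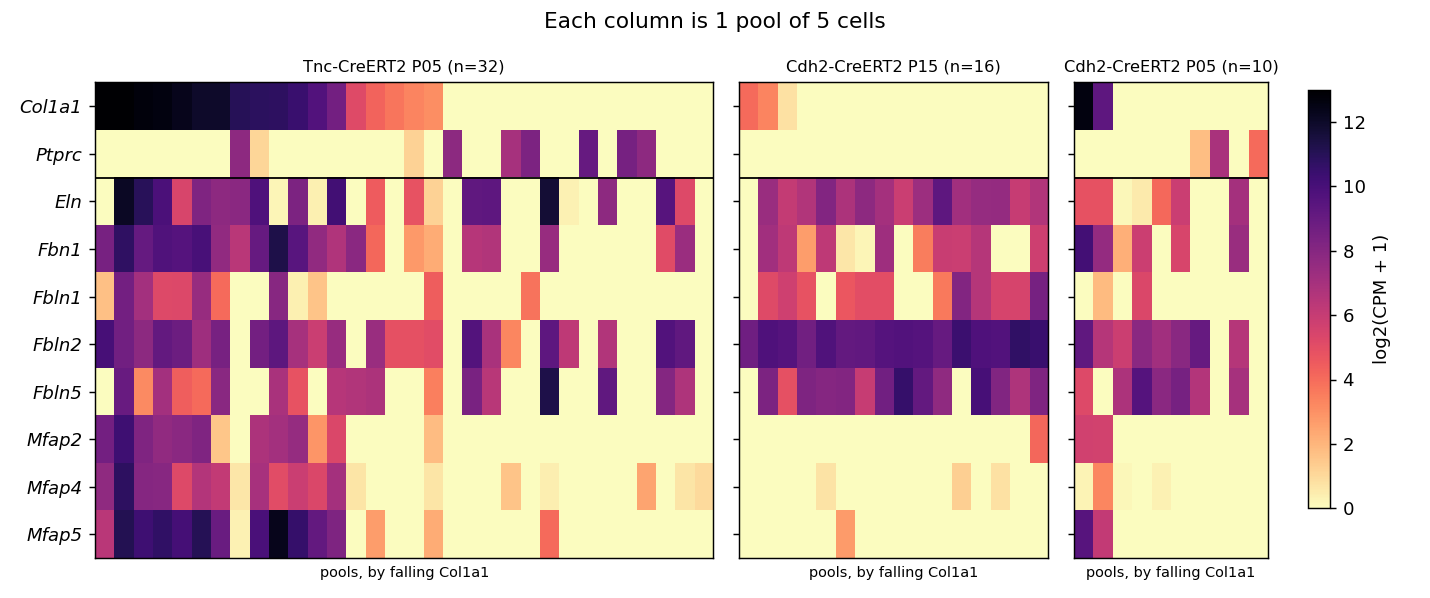
Level of Col1a1, Ptprc and each member in single pools (columns, ordered by falling Col1a1) of Tnc P05, Cdh2 P15 and Cdh2 P05, on a log2(CPM + 1) colour scale. In Tnc P05 the pools that hold Mfap genes are mostly those that hold Col1a1, and the Cdh2 P15 pools hold Eln, Fbln2 and Fbln5 with almost no Mfap2, Mfap4 or Mfap5.

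P15 of the Tnc line, the GFP+ cells without surface EpCAM, held little Eln or Mfap RNA, and Fbn1 and Fbln2 made up 33.6% and 34.3% of the members' summed level per kb. These shares rest on the 2 pools that held Fbn1 and the 1 that held Fbln2. Fbn1 had 49.55 CPM in P15 of TENA2483, 0 in TENA2517 and 93.1 in TENA2524, against 0.0208, 0 and 0 CPM in P18 of these animals. It was the 1 member called higher (edgeR adjusted p 0.0492; 0.198% of all genes called higher), with a pooled log2 ratio of 12.52 and a counting interval of 10.67 to 15.57. Only 2 of the 12 pools held it, at 195.5 and 114 CPM, and the sum of TENA2524 is 1 library of 508631 counts. With sums of at least 3 libraries only, the fitted log2 fold change was 10.28 and the edgeR adjusted p 0.140, so the call was lost. It was also lost in 7 of the 10 fits that left out an animal, namely each of the 5 Tnc animals, Cdh1654 or Cdh1739, with edgeR adjusted p values of up to 0.1998.

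Eln went the other way in these cells. It had 0.104, 0 and 0 CPM in P15 of TENA2483, TENA2517 and TENA2524, or 3 reads in all, against 20.5, 2.04 and 9.08 CPM in P18 of the same animals, and was lower in 3 of 3. The pooled log2 ratio was -6.73 (counting interval -9.01 to -5.18), which missed the threshold (edgeR adjusted p 0.151). The other members had at most 1 animal above 1 CPM: Fbln2 stood at 76.5 CPM and Fbln1 at 16.2 CPM in TENA2483, and Fbln5 at 41.7 CPM in TENA2524 from 26 reads. In TENA2483 nearly all of Fbn1, Fbln1 and Fbln2 came from the pool R3, at 195.5, 64.0 and 302 CPM. That pool was the only 1 of 12 that held Col1a1, at 483 CPM. All 12 pools held Ptprc, and the leukocyte markers summed to 1339 to 8860 CPM per animal, against 6.91 to 39.1 CPM in P18; 3 of 10 were called higher and 10 of 12 epithelial markers lower. The 12 fibroblast markers summed to 7.10 to 611 CPM in P15 (median 377) and 0.221 to 7.64 CPM in P18, with 2 called higher, and the 10 pericyte and smooth muscle markers to 2.04 to 2099 CPM in P15 and 3.36 to 19.6 CPM in P18, with 1 called higher. Of these 10 markers, 6 had a higher and 4 a lower fitted value, although only 8 had more than 3 reads in either population. The part of these cell types in the values of Fbn1 and Eln was not tested. The median fitted log2 fold change of the 8 genes was 2.24, against -0.61 over all genes tested. It lies between the fitted values of Fbln5 (1.31, from 27 reads in P15) and Mfap4 (3.17, from 20 reads). Fbln5 was lower than in P18 in 2 of 3 animals. With RLE size factors in edgeR the median of all genes moved to -0.18. The calls over all genes then were 136 higher and 135 lower, against 67 higher and 179 lower.

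Set directly against P05, P15 of the Tnc line had lower fitted values for all 8 members, with a median log2 fold change of -8.33 against -0.58 over all genes. Eln was the 1 called lower (0.121% of all genes called lower): its P15 values above stand against 1013, 0.0947 and 393 CPM in P05 of TENA2483, TENA2517 and TENA2524. The pooled log2 ratio was -12.84 with a counting interval of -15.12 to -11.29, and the edgeR adjusted p was 0.0417. The call was lost in each of the 5 fits that left out a Tnc animal and in the fit without Cdh1654. It was also lost with lane 1 animals only (adjusted p 0.162), without the library TENA2560 R10, which held 25.7% of the P05 reads of Eln (adjusted p 0.0537), and with sums of at least 3 libraries only, where the adjusted p was 0.0566. Mfap5 had 7 reads in P15 and 86974 in P05, a fitted log2 fold change of -13.41 ± 3.47 (SE) that missed the threshold (edgeR adjusted p 0.138). Of the other 6, Mfap2 had a fitted value of -11.67, Fbln1 of -9.97, Mfap4 of -6.69, Fbn1 of -5.29 and Fbln2 of -4.15, Fbln5 had the smallest change, and the edgeR adjusted p was 0.186 (Mfap4) or more.

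The populations with surface EpCAM had low and patchy levels of the 8 genes, and none was called against P18 in P10 or P16 (0.00296% of all genes called in each) or in P09, P22 or P17 (0.0% each). At an unadjusted edgeR p below 0.05 there were 1, 2, 2, 2 and 2 members in P10, P16, P09, P22 and P17, against 8.23%, 6.11%, 2.52%, 2.12% and 5.02% of all genes. DESeq2 called Fbln1 lower in P09, where 3.53% of all genes were, and Fbln1 and Fbn1 lower in P17, where 4.79% were, and no member in the other three. For Fbn1 that call rests on 0 reads in P17 and 2 in all of P18, so no fold is given. Fbln2 had reads in every P22 and P09 animal and averaged 25.1 ± 12.3 CPM in P22 and 20.9 ± 15.9 CPM in P09, against 22.1 ± 12.3 CPM in P18 (SD, n = 5 each). Fbln5 averaged 15.63 ± 7.105 CPM in P22 and 8.32 ± 6.48 CPM in P09, against 6.20 ± 2.89 CPM in P18. Eln averaged 4.61 ± 4.13 CPM in P22 and 8.875 ± 9.57 CPM in P09, against 7.84 ± 7.89 CPM in P18. None of these differences passed the test. The populations came from the same animals, and Fbln5 was higher in P22 than in P18 in 5 of 5, at 13.6, 13.7, 27.4, 8.12 and 15.4 CPM in P22 of TENA2462, TENA2483, TENA2517, TENA2524 and TENA2560, against the P18 values above. Its fitted log2 fold change was 1.29 ± 1.55 (SE; edgeR adjusted p 1). It was held by 28 of 50 P22 pools and 11 of 55 P18 pools. Fbn1 averaged at most 0.780 CPM, Mfap4 at most 0.191 CPM and Mfap5 at most 0.518 CPM in any of P10, P16, P09, P22 and P17. Fbln1 averaged at most 0.3055 CPM there except in P16, where all 262 reads came from 1 library of TENA2483. Mfap2 had 0 reads in P16, P09, P22, P17 and P18, and its 185 reads in P10 came from 1 of 25 pools, of TENA2517.

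**Figure D4:**
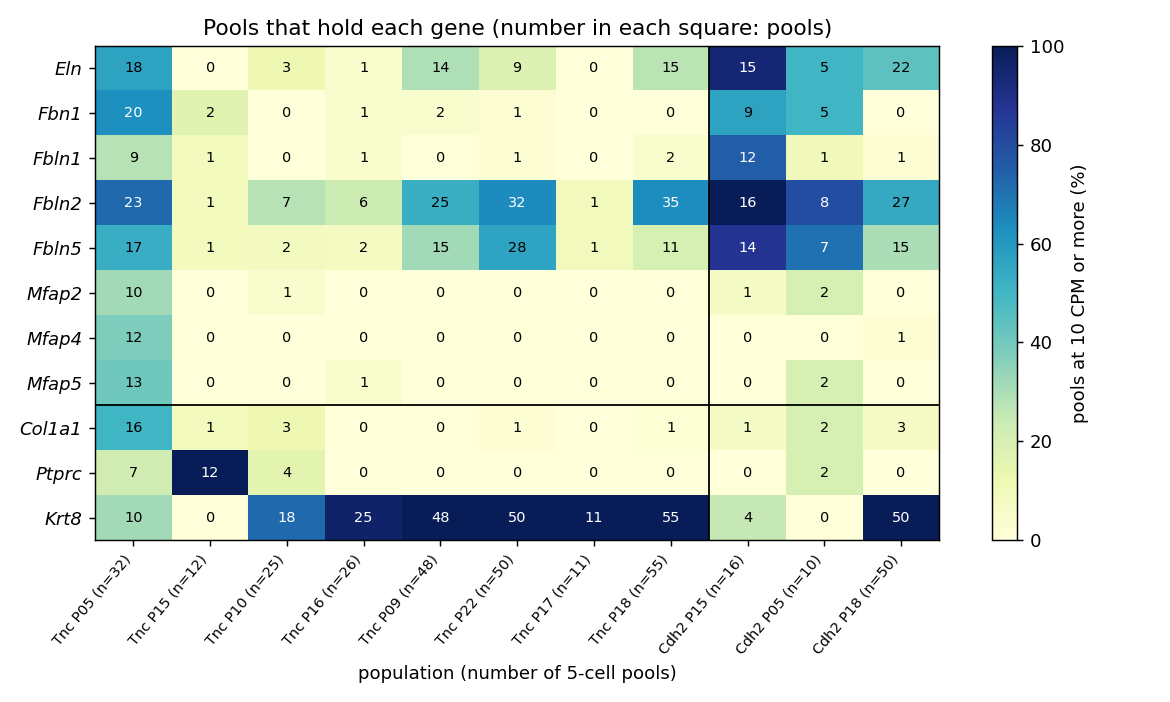
Number of pools that hold each gene at 10 CPM or more, by population, with the other populations of a line left of its P18; the colour gives the percent of pools, and Col1a1, Ptprc and Krt8 stand below the members. Fbln2 is held by 35 of 55 Tnc P18 pools and Mfap2 by none, while Mfap5 is held by 13 of 32 Tnc P05 pools and by 0 of 16 Cdh2 P15 pools.

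In the Cdh2 line, Eln, Fbln2 and Fbln5 stood above 100 CPM in P15 of each of its 3 animals, Fbln1 ran lower, and the Mfap genes stood near 0. No member was called against P18 by edgeR, where 0.0% of all genes were called; 4 were higher at an unadjusted p below 0.05, against 1.3% of all genes. DESeq2 called 4 higher (Fbn1, Fbln1, Fbln2 and Fbln5), against 1.09% of all genes. The median fitted log2 fold change was 6.09, also with Mfap2 at its bound, against 0 over all genes. The values below are therefore levels and not calls. Here too the share of all genes whose groups do not overlap is not given, so a lack of overlap describes the named gene only.

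Eln had 139 CPM in P15 of Cdh1624, 272 in Cdh1654 and 112 in Cdh1739, against 10.35, 25.9, 8.17, 15.4 and 8.56 CPM in P18 of Cdh1624, Cdh1654, Cdh1725, Cdh1739 and Cdh1803. Fbn1 had 74.7, 25.5 and 40.7 CPM in P15, against 0.0362 CPM in P18 of Cdh1739 and 0 in the other four. Neither gene's groups overlap. Their fitted log2 fold changes were 3.33 ± 1.79 for Eln and 11.03 ± 3.40 for Fbn1 (SE), with edgeR adjusted p values of 1 and 0.747.

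Fbln2 had 666, 373 and 975 CPM in P15, against 0, 43.7, 22.1, 31.3 and 11.55 CPM in P18. Fbln5 had 343, 191 and 250 CPM in P15, against 0, 6.68, 31.4, 4.71 and 1.35 CPM in P18. Fbln1 varied more, with 23.2, 4.52 and 120 CPM in P15 and 0, 0, 1.83, 0.933 and 0 CPM in P18. For all 3 fibulins the lowest P15 animal lay above the highest P18 animal. The P18 zeros of Cdh1624 come from a sum of 2 libraries. The fitted log2 fold changes were 5.63 ± 2.39, 6.56 ± 2.63 and 8.49 ± 3.39 for Fbln2, Fbln5 and Fbln1 (SE), each with an edgeR adjusted p of 1.

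Mfap2 had 0, 0 and 2.04 CPM in P15 of Cdh1624, Cdh1654 and Cdh1739, and 0 reads in P18. Mfap4 had 0.0552, 0 and 0.362 CPM in P15, against 0, 0.0174, 0.1185, 0.0434 and 2.43 CPM in P18. Mfap5 had 39 reads in P15, all in Cdh1624, and 2 reads in P18. All 3 thus stood near 0 in both populations, and the fitted change of Mfap4, 1.95 ± 2.28 (SE), turned negative under some settings. Of the 16 P15 pools, 16 held Fbln2, 15 Eln, 14 Fbln5, 12 Fbln1 and 9 Fbn1, against 1 that held Mfap2 and 0 that held Mfap4 or Mfap5. Eln, Fbln2 and Fbln5 stood together in 14 pools, 13 of them without any Mfap gene.

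The fibroblast markers summed to 62.75 to 138 CPM in Cdh2 P15 and 0.102 to 25.2 CPM in Cdh2 P18, with Cd34 and Thy1 at 0 in P15. Col1a1 averaged 1.475 ± 1.80 CPM in P15 (SD, n = 3) and 1.78 ± 2.54 CPM in P18 (SD, n = 5), and 1 of 16 P15 pools held it. Ptprc was at 0 reads in P15, as were 6 others of the 10 leukocyte markers. The pericyte and smooth muscle markers summed to 550 to 739 CPM in P15 and 11.8 to 108 CPM in P18, with Kcnj8, Notch3 and Des at 0 in P15. Neither list moved as a whole. Of the 10 pericyte and smooth muscle markers 6 had a higher and 4 a lower fitted value (median log2 fold change 0.126). Only 9 had more than 3 reads in either population, with a median of 0.253 where bounds and pooled ratios replace fitted values. Of the 12 fibroblast markers 6 had a higher and 6 a lower fitted value (median -0.074), and 11 had such reads, with a median of 0.267 on the same terms. The epithelial markers summed to 140 to 277 CPM in P15 and 2250 to 24938 CPM in P18; all 12 had a lower fitted value and 11 were lower at an unadjusted p below 0.05. The part of these cell types in the result was not tested.

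P05 of the Cdh2 line was sampled in 1 animal, Cdh1725, and has no replicate of its own. It had 51.6 CPM of Eln, 383 of Fbn1, 7.39 of Fbln1, 371 of Fbln2, 304 of Fbln5, 23.75 of Mfap2, 2.08 of Mfap4 and 210 of Mfap5, against 8.17, 0, 1.83, 22.1, 31.4, 0, 0.1185 and 0 CPM in P18 of the same animal. Each of the 8 stood higher in P05. None was called (0.0% of all genes), in a fit that assumes the lone sum to vary like the other groups; on the same assumption DESeq2 called Fbn1, and 0.663% of all genes, higher. The fibroblast markers summed to 5615 CPM in P05, against 0.102 to 25.2 CPM in P18 of the 5 animals. The leukocyte markers summed to 1587 CPM in P05, against 9.30 to 243.5 CPM in P18, and the pericyte and smooth muscle markers to 701 CPM, against 11.8 to 108 CPM. Of the pericyte and smooth muscle markers 4 had a higher and 6 a lower fitted value, with a median log2 fold change of 0. Of the fibroblast markers 11 had a higher and 1 a lower one. The epithelial markers summed to 193 CPM in P05, against 2250 to 24938 CPM in P18; the part of these cell types was not tested. Mfap2 and Mfap5 were held by 2 of the 10 pools, the same 2 that held Col1a1, whereas all 6 pools with neither Col1a1 nor Ptprc held Fbln2 and Fbln5. In Tnc P05, too, the Mfap genes stood mostly in pools with Col1a1; the 2 sets of pools were not compared by a test.

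Whether P15 differed from P18 to another extent in the Cdh2 line than in the Tnc line was tested as an interaction. No member was called (0.00888% of all genes called for P15, 0.0% for P05). For Eln the difference of the log2 fold changes was 11.44 ± 3.27 (SE), with an unadjusted p of 0.00153 and an edgeR adjusted p of 0.323: Eln was higher in P15 than in P18 in 3 of 3 Cdh2 animals and lower in 3 of 3 Tnc animals. Fbln1 gave 11.40 ± 4.31 (unadjusted p 0.0135, edgeR adjusted p 0.540), Fbln2 6.06 ± 3.05, Fbln5 5.25 ± 3.22 and Mfap4 -1.22 ± 2.72. Fbn1 gave -0.31, without a usable SE. The fitted log2 fold changes it compares were 11.03 ± 3.40 in the Cdh2 line and 11.34 ± 2.78 in the Tnc line (SE). They are too wide to show that the lines were alike for Fbn1. DESeq2 called Eln, Fbln1 and Fbln2, as it did 7.29% of all genes in that direction. Mfap2 and Mfap5 had too few reads for a usable difference. For P05, where the Cdh2 line has 1 animal, the fitted differences lay between -5.75 (Mfap4) and 0.47 (Fbn1), each with an edgeR adjusted p of 1. The lines were sequenced on different lanes but for TENA2524, so line and lane cannot be told apart in these values.

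Other genes of the elastic fibre pathway were grouped by role and compared in Tnc P05 and P18. Of the 14 assembly proteins and fibrillin partners, 1 rose, Emilin2, a glycoprotein of the elastin and microfibril interface family, at 99.5 ± 141.5 CPM in P05 and 0.00726 ± 0.0162 CPM in P18 (SD, n = 5 each; edgeR adjusted p 0.0369). Of the 5 crosslinking enzymes, 1 rose, Lox, which oxidises lysines of elastin and collagen. It had 63.3 ± 65.1 CPM in P05 and 0 reads in P18, a log2 fold change of at least 12.92 (edgeR adjusted p 0.0277), although DESeq2 gave an adjusted p of 0.106. Of the 8 elastin-degrading proteases and of the 7 receptors, integrin subunits that bind matrix proteins, none was called in either direction. DESeq2 called 7 assembly proteins, 3 crosslinking enzymes, 4 proteases and 1 receptor higher, and 1 protease and 1 receptor lower, where it called 6.5% of all genes higher. The median log2 fold changes were 3.04, 8.19, 5.76 and 1.26 for the 4 roles in that order, against -0.15 over all genes.

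In Tnc P15 against P18, Lox was the 1 gene called in these roles, with a log2 fold change of at least 12.05 (edgeR adjusted p 0.0329). DESeq2 called 0 of the 5 crosslinking enzymes there, and P15 rests on 12 pools of 3 animals, 1 of them with 1 library. In Cdh2 P15 against P18 none was called by edgeR. There Loxl1, a lysyl oxidase that acts on elastin, stood at 20.35 ± 8.00 CPM in P15 (SD, n = 3) and 0.0636 ± 0.101 CPM in P18 (SD, n = 5), while Lox stood at 0.249 ± 0.4305 CPM in P15 and 2.52 ± 5.635 CPM in P18.

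Across the 43 sums, the genes whose log2(CPM + 1) was most like the mean of the 8 members were Loxl1 (Pearson's r 0.951), Dpt (0.925), Col5a1 (0.924), C1qtnf6 (0.922), Bgn (0.922), Cpxm1 (0.919), Adam23 (0.913), Insyn1 (0.911), Col5a2 (0.910) and Gm27000 (0.908). With a pseudocount of 0.1 CPM 7 of the 10 were among the first 10, and with 10 CPM 5 were. Among the members, Mfap4 and Mfap5 were most alike (0.93), then Mfap2 and Mfap5 (0.93), while Fbln2 was most like Fbln5 (0.73) and Fbn1 most like Mfap5 (0.79). The lowest pair was Mfap2 with Fbln2 (0.43). These sums share animals and populations, so the values describe the 43 sums and carry no p.

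On GRCm38 the 8 genes lie on 7 chromosomes, with Fbln2 (chr6:91212455-91272540) and Mfap5 (chr6:122505845-122529290) on the same one, and values below are whole gene spans. Eln lies at chr5:134702593-134747323, Fbn1 at chr2:125300594-125507993, Fbln1 at chr15:85205949-85286535, Fbln5 at chr12:101746565-101819055, Mfap2 at chr4:141010418-141015984 and Mfap4 at chr11:61485431-61488900. The span of Eln overlaps that of Gm30003 on the other strand by 282 bases. The span of Fbn1 overlaps that of Gm9913 by 2793 bases and the span of Mfap4 that of Mapk7 by 89 bases. Overlap of their exons was not measured. The strand setting of the counting is not given in the sources used here either. Whether reads in those stretches were assigned to the right partner is therefore not known.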

How the data were processed

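RNA was measured by Smart-seq2 in pools of 5 cells sorted from tumours of both mouse lines. The authors deposited raw read counts per gene, without normalization, and a quality control mark per library; the submitters' processing notes name STAR, SAMtools, featureCounts, Subread and the build mm10, without versions. Neither the strand setting nor the annotation is given in the sources used here. Of 487 libraries with cells, 335 passed the authors' quality control and 152 did not; passing libraries were summed per animal and population, as pools of 1 animal share their source. Totals per passing library ran from 313655 to 27849014 counts. Intervals pool the reads over animals, so they cover counting error only and leave out the spread between animals. No molecular identifiers were used, so duplicate reads cannot be told from separate molecules.

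Sums were tested with edgeR 4.0.16 (quasi-likelihood, robust, TMM factors between 0.57 and 2.53, filterByExpr by population, animal as a block, 24 residual degrees of freedom), in 1 fit of 43 sums and 33768 genes, with Benjamini-Hochberg adjustment within each of 12 comparisons. The same animals gave the populations compared, so the block is part of the design. Each SE of an edgeR fold was worked out as the size of the fold over the square root of its F statistic. It is therefore approximate, and poor for folds near 0. Where a group had 0 reads, 3 counts over the group gave a bound; with 1 to 3 reads, the pooled ratio is given with its 95% exact binomial interval; with 3 or fewer in both, no fold. Levels per kb use exon lengths of GENCODE M21 (GRCm38). DESeq2 1.42.0, RLE factors, no filter, no block, equal weights, other library sets and leaving out each animal were alternatives. The fit was also run on simulated counts with the same spread for all genes and no animal effect. That run does not bear on genes nearly without reads in P18. Named genes were the 8 members, pathway genes where called or of high level, and the 10 genes most like the members; members with few reads are given as ranges or counts in the comparisons without calls. The members and lists were chosen with earlier results of these data known. Python 3.11.15, pandas 2.3.3, numpy 2.4.6, scipy 1.17.1 and matplotlib 3.10.9 were used.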

Additional observations from a re-analysis of the deposited data

Results flagged for a closer look

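In groups of 4 or 5 animals, the highest or lowest animal was set against the others by Dixon's criterion on CPM. Chance meets it in about 1 of 20 groups of normal values, a rate that does not hold for levels with many zeros. A group with reads in 1 animal only always meets it. Of 50 pairs of gene and group 25 met it, all through the highest animal, which is no measure of an excess. Many levels are near 0, and 8 of the 25 values were below 1 CPM. In Tnc P05 TENA2462 stood apart with 1747 CPM of Fbn1, 3658 CPM of Mfap5 and 216 CPM of Fbln1.

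In P16 the single library of TENA2483 held 82.5 CPM of Eln and 35.5 CPM of Fbln1, against at most 0.689 and 0 CPM in the other animals. Also in P16 stood Fbln5 at 14.65 CPM in TENA2462, Mfap4 at 0.181 CPM in TENA2524 and Mfap5 at 1.85 CPM in TENA2517. In P10 they were Eln at 28.9 CPM, Mfap4 at 0.182 CPM and Mfap5 at 0.495 CPM in TENA2524, Fbln5 at 17.4 CPM and Fbn1 at 1.201 CPM in TENA2483, and Mfap2 at 24.0 CPM in TENA2517. In P09 they were Fbln2 at 48.3 CPM in TENA2524 and Fbln1 at 0.179 CPM in TENA2483. In P22 they were Fbn1 at 3.195 CPM in TENA2524, and Fbln1 at 1.32 CPM and Mfap5 at 0.155 CPM in TENA2483.

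In P18 of the Tnc line they were Fbln2 at 43.2 CPM in TENA2524 and Mfap5 at 0.0111 CPM in TENA2560. In P18 of the Cdh2 line they were Fbln5 at 31.4 CPM in Cdh1725, Fbn1 at 0.0362 CPM in Cdh1739, and Mfap4 at 2.43 CPM and Mfap5 at 0.0291 CPM in Cdh1803. On log2(CPM + 1), a scale added after the CPM result was seen, 20 pairs met the criterion, 16 of them with the same animal, and 4 were lowest animals, all TENA2517 in Tnc P05.

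For Eln, P15 against P18 differed by 11.44 on the log2 scale between the Cdh2 and the Tnc line (edgeR unadjusted p 0.00153, adjusted p 0.323), higher in 3 of 3 Cdh2 animals and lower in 3 of 3 Tnc animals. Among the 28 Tnc P05 libraries that failed quality control, which the comparisons as reported do not use, 7 held a member at 10 CPM or more.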

How the results depend on the processing

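DESeq2 called more of all genes than edgeR in each comparison: 8 members in Tnc P05 against P18 (6.5% of all genes higher), 2 in Tnc P15 (15.5% in either direction), 1 in P09 and 2 in P17 (3.53% and 4.79% lower), 6 in P15 against P05 (13.2% lower), 4 in Cdh2 P15 and 1 in Cdh2 P05, an arm of 1 animal (1.09% and 0.663% higher) and 3 in the P15 interaction (7.29% higher). With no replicate block for the animal, 2 were called in P15 against P05, as with failed libraries included. With sums of at least 3 libraries or with lane 1 animals only, 0 were called in Tnc P15 against P18 and 0 in P15 against P05. With pools holding Ptprc left out, 5 were called in Tnc P05; with only the 2 populations compared in the fit, 1 was called there and 0 in Tnc P15, a choice made after seeing the data. Leaving out 1 animal or 1 of 3 libraries gave 0 to 4 in Tnc P05 against P18, 0 to 1 in Tnc P15 against P18 and 0 to 1 in P15 against P05. The log2 fold change of Mfap4 in Cdh2 P15 reversed to -1.84 without the block, -0.074 with failed libraries and -0.12 without Cdh1739. That of Mfap5 was 0 with sums of at least 3 libraries and without Cdh1624, and that of Mfap2 0 without Cdh1739. Leaving out animals, the ranges there were -0.12 to 3.09 for Mfap4, 0 to 3.20 for Mfap5 and 0 to 9.58 for Mfap2. Fbln1 in Tnc P05 ran from -0.24, without TENA2462, to 9.54, without TENA2517. The causes were not tested, apart from fewer samples or genes in some settings. Over all settings, for the 8 genes in Tnc P05 and Cdh2 P15 against P18, Fbn1 in Tnc P15 and Eln in P15 against P05, 341 log2 folds kept their direction and side of the threshold, 31 lost a call, 18 gained one and 7 reversed. With pools holding Ptprc left out, Tnc P15 had no pool left and gave no value. RLE factors moved the median log2 fold of all genes in Tnc P05 to 0.17, against -0.15. Depth limits the low genes: 3 counts are 0.5578 CPM at the median depth of a library.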
